A study of Homo sapiens with 5 samples.

Results

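Divergent transcripts are long non-coding RNAs that start close to a protein-coding gene and run away from it on the other strand. In the human gene catalogue they carry the name of that gene with the ending -DT. The calls described here are transcription start sites placed at -DT genes in HUDEP-2, a human red cell precursor line that has been immortalised. A call was a member when it lay on the forward strand within 500 bp of the left end, or on the reverse strand within 500 bp of the right end, of a RefSeq lncRNA gene with such a symbol. The rule found 395 of the 28159 calls on chromosomes 1 to 22 and X (1.40%), of which 185 were forward calls and 210 reverse calls. They belonged to 335 of 591 -DT genes.

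PRO-seq, in which engaged RNA polymerases extend their RNA with biotin-labelled nucleotides in isolated nuclei, was performed on 3 libraries of HUDEP-2 clones in which sg1617 had cut the BCL11A enhancer, and on 2 libraries of wild-type HUDEP-2 cells. Each edited library was 1 clone grown from 1 cell, and the clones carried a 1 bp insertion, a 13 bp deletion and a 15 bp deletion. The start sites were deposited as 1 list per strand, made from 1 HUDEP-2 alignment whose name carries no edit and is no sample's title. The lists have no column per library, no read counts and no replicates, so edited and wild-type cells could not be compared, the depth is unknown, and no tests were run. All 10 erythroid marker genes checked, among them HBB, GATA1 and ALAS2, had a promoter call, against 0 of 6 lymphoid, 0 of 5 myeloid, 0 of 5 megakaryocyte, 0 of 4 hepatocyte and 0 of 4 neuronal markers.

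At many mammalian promoters, RNA polymerase II starts in both directions from a shared nucleosome-depleted region. The RNA that runs upstream and antisense is usually terminated early and degraded by the nuclear exosome, so it is often scarce in total RNA, while nascent RNA methods record it as it is made. At some promoters this RNA is spliced or stable enough to have been annotated as a gene, and the -DT genes are such cases. What most individual -DT RNAs do, if anything, is not established.

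Close pairs of calls show how little sequence can separate the start of a -DT gene from that of its partner. Below, 6 such stretches, chosen from the closest divergent pairs and 1 ribosomal protein gene, are printed 5′ to 3′ on the strand of the -DT gene, from 20 bases beyond the partner's call to 20 bases beyond the -DT call. They are RefSeq sequence of build GRCh38.p14. Capitals mark each called base with its neighbours, those of the partner first and those of the -DT gene second, and the partner's capitals are read as their reverse complement in the direction of its transcription.
TMEM161B-DT (chr5:88268826-88268910, forward strand): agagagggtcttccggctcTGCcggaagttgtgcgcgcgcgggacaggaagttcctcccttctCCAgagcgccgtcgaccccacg
RB1-DT (chr13:48303683-48303770, reverse strand): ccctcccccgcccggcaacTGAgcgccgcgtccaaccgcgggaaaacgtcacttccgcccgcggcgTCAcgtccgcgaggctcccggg
EMSY-DT (chr11:76444661-76444755, reverse strand): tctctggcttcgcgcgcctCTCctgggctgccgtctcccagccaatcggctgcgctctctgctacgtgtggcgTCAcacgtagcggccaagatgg
ZNF778-DT (chr16:89217634-89217730, reverse strand): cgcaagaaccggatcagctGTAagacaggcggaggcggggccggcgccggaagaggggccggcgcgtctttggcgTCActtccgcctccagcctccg
OTULIN-DT (chr5:14664576-14664683, reverse strand): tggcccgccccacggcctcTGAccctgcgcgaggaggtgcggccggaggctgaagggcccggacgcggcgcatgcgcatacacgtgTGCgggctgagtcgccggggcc
RPL37A-DT (chr2:216498733-216498865, reverse strand): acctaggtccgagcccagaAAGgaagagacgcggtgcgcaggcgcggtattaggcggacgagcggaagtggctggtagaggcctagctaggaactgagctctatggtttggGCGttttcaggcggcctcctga

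At RB1-DT, beside the retinoblastoma gene that restrains entry into S phase, the calls at 48303703 and 48303750 lay 47 bp apart. Each was 1 bp upstream of its annotated start, and the triplet around the call read TCA on both strands. TMEM161B-DT and TMEM161B were called 44 bp apart. ZNF778-DT, beside a zinc finger gene, was called 56 bp from ZNF778, again with TCA around the -DT call and TAC around that of the partner. OTULIN-DT was called 67 bp from OTULIN, which encodes a deubiquitinase of linear ubiquitin chains. RPL37A-DT was called 92 bp from RPL37A, a large ribosomal subunit gene, which is also the annotated distance. EMSY-DT was called 54 bp from a call that lay 283 bp upstream of the annotated start of EMSY, a gene for a BRCA2-binding chromatin protein. EMSY had a further promoter call, 344 bp from that of EMSY-DT, so its close pair rests on the more remote of 2 calls.

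Of the 591 -DT genes 335 had a call, or 56.7% (Wilson 95% interval 52.7 to 60.6%). By the same rule 8.03% of the 17586 other lncRNA genes were called. Among these, lncRNA genes with a LINC symbol, most of which lie between genes, reached 5.29%, and those named as antisense to another gene (ending in -AS and a number) 19.5%. Over all 59098 genes the share was 18.9%, and over all protein-coding genes 42.2%. The protein-coding partners of the -DT genes were called in 69.2%, against 41.4% of the other protein-coding genes. These differences were not tested, since genes on 1 list are not replicates, and the intervals cover counting only. The shares on the 2 strands were 57.0% of 279 forward and 56.4% of 312 reverse -DT genes. By chromosome, 39 of 66 were called on chromosome 1, 9 of 11 on chromosome 13, 1 of 6 on chromosome 21 and 2 of 11 on chromosome X.

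The direction of a -DT gene was taken from the RefSeq promoter table for 469 genes, from the partner's strand in that table for 50 and from the position of the partner for 72. With it, 381 of the 395 calls lay at the start of the -DT gene and 14 at its far end. Of the 14 genes with a far-end call 11 were shorter than 2000 bp. In DCAF8-DT and NECTIN1-DT the far-end call was the only one. At their start 332 -DT genes were called. The far-end calls of C16orf95-DT, DCAF8-DT and YTHDF3-DT also lay within 500 bp of the partner gene's own end. These 14 calls run against the -DT gene, and the medians for single genes below leave them out.

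Where the partner was called at its start, its -DT gene usually was too. With a call at either end of the -DT gene counted, both were called in 294 pairs, the -DT gene alone in 41, the partner alone in 112 and neither in 144. Thus 72.4% of the -DT genes with a called partner were called (interval 67.9 to 76.5%, n = 406), against 22.2% of those with an uncalled partner (interval 16.8 to 28.7%, n = 185). Among the 433 pairs whose annotated starts were 0 to 500 bp apart, the shares were 77.2% (interval 72.3 to 81.4%, n = 320) and 22.1% (interval 15.5 to 30.6%, n = 113). The intervals did not overlap in either case. A -DT call and a partner call come from the same alignment and the same stretch of chromatin and are not independent. The 294 include DCAF8-DT, whose only call is also the promoter call of DCAF8, and NECTIN1-DT, called only at its far end. Both starts were called in 292 pairs.

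The share of called -DT genes was lowest where the annotated starts were far apart. The annotated starts were 135 bp apart in the median pair, and in 102 pairs the -DT gene was annotated to start inside its partner. Of the -DT genes starting 0 to 100 bp from the partner 67.5% were called, against 78.3% of their partners. Beyond that and up to 200 bp the shares were 61.5% of -DT genes and 73.4% of partners, and from there to 500 bp 60.4% and 70.8%. With overlapping starts 51 of 102 -DT genes and 52.9% of partners were called. Of 33 -DT genes annotated more than 1000 bp away only 1 was called, TRIM8-DT (3.03%, interval 0.537 to 15.3%), while 63.6% of their partners were. The 33 include ABCF1-DT, listed at 2051023 on chromosome 6, 28520419 bp from ABCF1, and uncalled. Only this listed position was searched, and whether it is right was not checked. Its lack of a call therefore says nothing about a divergent start beside ABCF1.

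**Figure D1:**
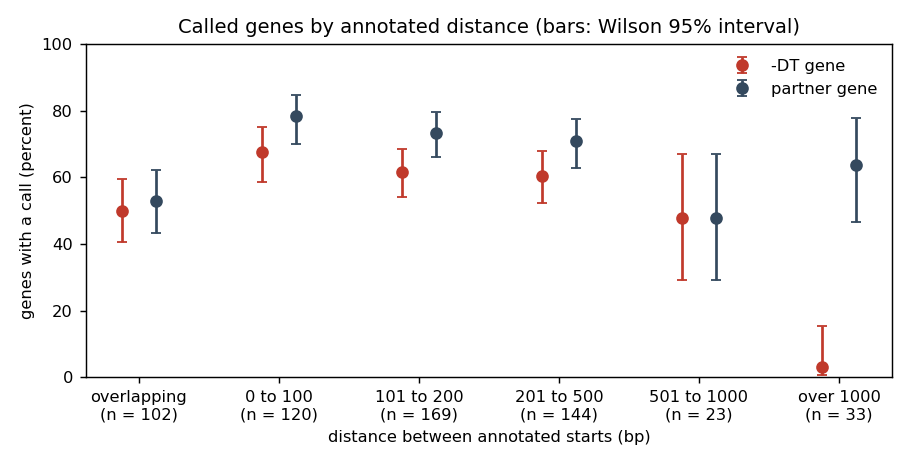
Share of -DT genes (red) and of their partners (blue) with a call, in percent, by the distance between the annotated starts in bp. Points are shares and bars Wilson 95% intervals; over 1000 bp the -DT genes lie at 3.03% and the partners at 63.6%, while from 0 to 500 bp the -DT genes lie between 60.4% and 67.5%.

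Calls lay close to the annotated -DT starts, within the 500 bp that the rule allows. Taking the call nearest to the start of each gene, the median offset was 9.5 bp downstream (quartiles -1 and 51.2 bp, n = 332), against 2 bp for the partners (quartiles -1 and 23.8 bp, n = 406). Within 10 bp lay 34.6% of the -DT genes (interval 29.7 to 39.9%), against 48.5% of the partners (43.7 to 53.4%). Within 50 bp lay 66.9% of the -DT genes and 82.3% of the partners. In 292 pairs with both starts called, the -DT call was nearer to its annotated start in 116, the partner's in 166, and 10 were tied. Of the nearest calls of the 332 -DT genes, more lay over 100 bp downstream of the annotated start, 43 (13.0%), than over 100 bp upstream, 20 (6.02%). The most frequent offsets among the 332 were -1 bp, in 35 genes, and 0 bp, in 18.

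**Figure D2:**
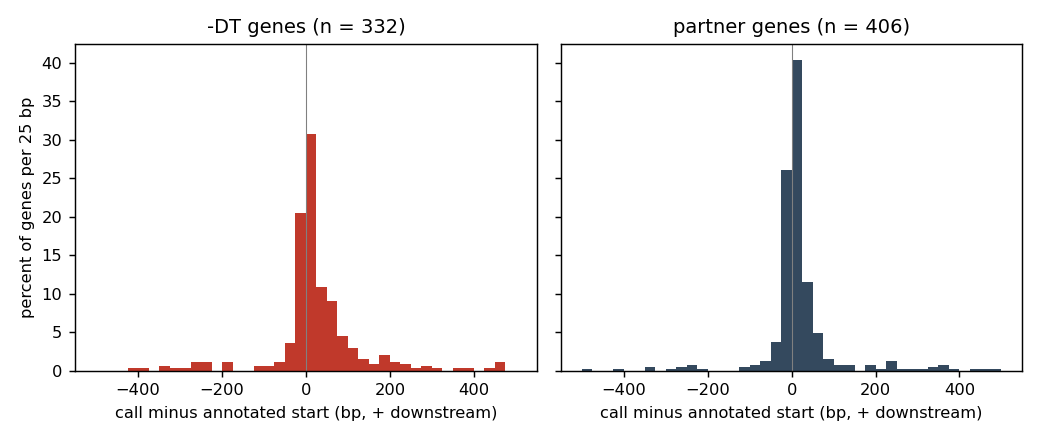
Offset of the call nearest to the annotated start, in bp with downstream positive, for 332 -DT genes (left, red) and 406 partner genes (right, blue); bars give the percent of genes per 25 bp. Both peak at the annotated start, and the -DT genes have a broader downstream shoulder, with 66.9% within 50 bp against 82.3% of the partners.

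Exact matches were spread over partners of very different function. ATF6-DT, beside a sensor gene of the unfolded protein response, was called at its annotated base, 161766147 on chromosome 1. MED28-DT, beside a Mediator subunit gene, was called at 17614580 on chromosome 4, and IDH3B-DT, beside a subunit gene of the mitochondrial isocitrate dehydrogenase, at 2664274 on chromosome 20. H3-3A-DT, next to a gene for the replication-independent histone H3.3, was called at 226062495 on chromosome 1. GPR155-DT and GPR155 were both called at offset 0, 359 bp apart, as were TMEM11-DT and TMEM11, 164 bp apart.

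In 5 -DT genes the call nearest to the annotated start lay over 400 bp downstream of it. Of these 5, 4 are annotated as starting inside their partner, whereas 13 of the 43 whose nearest call lay over 100 bp downstream are. Genes that also had a nearer call, such as PDE7A-DT, are not counted here. The call of CTDP1-DT lay 458 bp downstream of its annotated start, that of MARCHF6-DT 454 bp, that of IDH2-DT 452 bp and that of EPB41L4A-DT 451 bp. In these 4 the annotated starts overlap, by 336 bp at IDH2-DT and 2977 bp at CTDP1-DT. IDH2, which encodes the mitochondrial NADP-dependent isocitrate dehydrogenase, was called at its annotated base, and the IDH2-DT call lay 116 bp upstream of it. EPB41L4A-DT was likewise called 98 bp upstream of the EPB41L4A call. The annotated overlap was therefore not seen in the calls of these last 2 pairs. Between 450 and 550 bp from a -DT start there were 17 calls inside the window, such as PDE7A-DT at 491 bp and C16orf95-DT at -486 bp, and 12 outside it, such as SOD1-DT at 502 bp and DMXL1-DT at -505 bp, examples chosen after their values were seen.

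The distance between the 2 calls is limited by the choice of calls, since each lay within 500 bp of its annotated start and those starts are mostly close together. Its values, its orientation and its likeness to the annotated distance are therefore given as a description. In 292 pairs with both starts called, the -DT call lay upstream of the nearest partner call, in the divergent orientation, in 259 (88.7%, interval 84.6 to 91.8%). These divergent calls were a median of 192 bp apart (quartiles 128 and 306 bp), from 43 bp at IKBKB-DT to 801 bp at GSK3B-DT. Only 3 pairs were within 50 bp and 28 within 100 bp, whereas 137 (52.9%) were within 200 bp and 247 (95.4%) within 500 bp. The calls were usually farther apart than the annotated starts, in 220 pairs, closer in 66 and equally far in 6, by a median of 30 bp (quartiles 1 and 84.2 bp). In 150 pairs (51.4%) the distances differed by at most 50 bp.

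**Figure D3:**
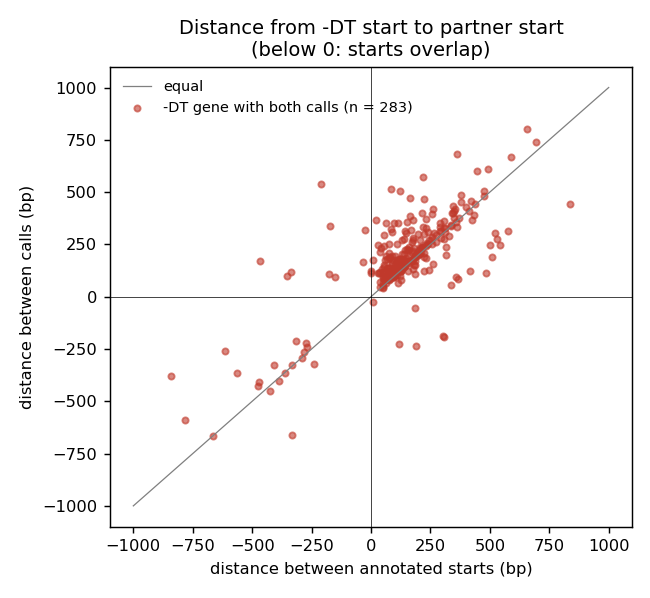
Distance between the -DT call and the nearest partner call (vertical, bp) against that between the annotated starts (horizontal, bp) for the 283 of 292 pairs within 1000 bp on both axes; each point is a -DT gene, the grey line marks equality and values below 0 are overlapping starts. Most points lie above the line, since 220 of the 292 pairs were farther apart in the calls than in the annotation.

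Overlapping calls, with the -DT call inside the partner's transcribed side, were found in 33 pairs, and 27 of them had overlapping annotated starts as well. H3-3A-DT started 665 bp inside H3-3A, SOD1-DT 327 bp inside SOD1, the gene of the cytosolic superoxide dismutase, and EIF5-DT 451 bp inside the gene of translation initiation factor 5. Their annotated overlaps were 664, 331 and 423 bp. The longest were MAPK6-DT at 47207 bp, SLC25A28-DT at 38464 bp, CFAP58-DT at 14823 bp, ZNF584-DT at 6899 bp and TAF12-DT at 5043 bp. SLC25A28 encodes mitoferrin-2, a mitochondrial iron importer, and TAF12 a TFIID subunit. In 14 of the 33 pairs another call lay upstream of the -DT call in the divergent position, at 152 bp for both MAPK6-DT and TAF12-DT and 225 bp for H3-3A-DT. Calls upstream of and antisense to the partner's call are not part of this count. EIF5, outside the 14, had such a call 291 bp from its own, whereas H3-3A had none within 1000 bp. USP34-DT had the smallest distance of the 292 pairs in either orientation, with its call 23 bp inside that of USP34, a deubiquitinase gene. That is the USP34-DT call nearest to the annotated start, and a further one lay 317 bp from the USP34 call in the divergent orientation.

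With any call of the other strand within 1000 bp counted, 287 of 335 called -DT genes had a divergent call (85.7%, interval 81.5 to 89.0%), at a median of 190 bp (quartiles 130 and 306 bp). Seen from the other side, 301 of the 406 called partners (74.1%, interval 69.7 to 78.2%) had a call upstream and antisense to them. Among 6594 other called protein-coding genes with a strand in the promoter table, 66.7% had one (interval 65.6 to 67.9%). The median distances were 186 bp at partners and 177 bp at the other genes. The nearest antisense call was a -DT member at 260 of the 301 partners.

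Of the 41 called -DT genes whose partner was not called, 13 had a divergent call and 28 had none. At ATP13A3-DT, CEP83-DT, CTBP1-DT, CTDP1-DT and DHCR7-DT the divergent call lay inside the partner gene, from 569 bp (CEP83-DT) to 7317 bp (ATP13A3-DT) downstream of the partner's outermost annotated start. DHCR7 encodes the last enzyme of one branch of cholesterol synthesis, and CTBP1 a transcriptional corepressor. Of the 41 partners 34 were in the promoter table, and 11 of these were called at another start that it lists. ADAMTS16-DT, ANKRD42-DT, ATP8A1-DT, B4GAT1-DT, BSN-DT, C2orf49-DT and CAMSAP1-DT were among the 28 with no divergent call. BSN encodes a scaffold protein of nerve terminals, and BSN-DT was called 7 bp from its annotated start. KLF2-DT, chosen after its value was seen, was called 1 bp from its start, at 16324669 on chromosome 19, with no promoter call at KLF2, a zinc finger transcription factor gene that is not on the erythroid list.

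Among 256 uncalled -DT genes, 231 held no call on either strand and 12 held a call on their own strand inside the gene. Of the 112 with a called partner, 22 (19.6%, interval 13.3 to 28.0%) had another call in the upstream antisense position, outside the 500 bp window around the -DT start. They included MRPL20-DT, where the antisense call lay 85 bp from that of MRPL20 but at -971 bp from the annotated -DT start, upstream of it, and CHD1-DT, where it lay 150 bp from that of the chromatin remodeller gene CHD1 and 626 bp inside the -DT gene. At FOXP1-DT it lay 126 bp from the FOXP1 call, and at PSMD14-DT and PSMD7-DT, annotated 53782 and 81293 bp from their proteasome subunit genes, 142 and 120 bp from the partner's call. The 22 also include ABCF1-DT, whose listed position, 28520419 bp from ABCF1, was not checked. The other 90 partners were called with no antisense call within 1000 bp, and 73 of these had a -DT start annotated 0 to 500 bp away. PRPF19-DT and PRPF39-DT, beside splicing factor genes, STX5-DT, beside a Golgi syntaxin gene, and UBE2E2-DT, beside a ubiquitin-conjugating enzyme gene, were of this kind. With no read counts, a start below the caller's minimum cannot be told apart from one that was not used.

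The -DT genes were also grouped by the first letters of the partner's symbol, so that a group can hold genes of other functions than its name says. Groups are read against the share of all -DT genes called, 56.7%. Of the -DT genes beside partners with ribosomal protein and translation factor prefixes (RPL, RPS, MRPL, MRPS, EIF and EEF) 9 of 10 were called, against all 10 of the partners. The group also holds EIF2AK3-DT, whose partner encodes the stress kinase PERK. EIF2B5-DT (offset 10 bp, 124 bp from the EIF2B5 call), RPS21-DT (11 bp, 125 bp), RPL37A-DT and EIF5-DT (both -1 bp) were the closest to their annotated starts, and MRPL20-DT was the uncalled one. The group with RNA processing prefixes had 8 of 11 -DT genes and 10 of 11 partners called, with RBM33-DT at offset 0 and NUP93-DT, beside a nuclear pore scaffold gene, at -1 bp. The zinc finger group had 17 of 25 -DT genes and 19 of 25 partners called, among them ZNF582-DT at 3 bp and ZNF692-DT at 7 bp. ZFP28-DT and ZFP3-DT were uncalled together with their partners, ZBTB24-DT and ZNF222-DT without them.

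Developmental transcription factors had 1 of 6 -DT genes and 2 of 6 partners called. POU2F1-DT, called at -1 bp, accompanies OCT1, which is used in most tissues. EN2-DT, FOXF2-DT, IRX2-DT and LHX1-DT, beside genes that pattern the embryo, were uncalled together with their partners, while FOXP1-DT was uncalled beside a called FOXP1. Among ubiquitin and proteasome genes 10 of 17 -DT genes were called, against 15 of 17 partners, and among solute carrier and mitochondrial genes 8 of 13, against 11 of 13. SLC30A6-DT, beside a zinc transporter gene, and its partner were each called at -1 bp, 123 bp apart. TOMM22-DT, beside a gene of the mitochondrial import receptor, was called at 33 bp. The cell cycle, replication and repair group had 5 of 8 -DT genes and 6 of 8 partners called. CDC20-DT, beside the activator gene of the anaphase-promoting complex, was called at -4 bp and 276 bp from CDC20, and SMC5-DT at 8 bp and 111 bp from SMC5.

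Partners with transmembrane protein (TMEM) and vesicle traffic prefixes had 15 of 26 -DT genes and 19 of 26 partners called, kinases, phosphatases and G protein regulators 13 of 23 and 14 of 23, and chromatin enzymes 2 of 4 and 3 of 4. PPP2CA-DT, beside the catalytic subunit gene of protein phosphatase 2A, was called at -1 bp, 337 bp from PPP2CA, exactly its annotated distance. The intervals of all groups were wide, and those of -DT genes and partners overlapped in each of the 11 groups. ARHGAP11A-DT and ARHGAP11B-DT, both called, belong to a recent gene duplication, and reads that match both copies may have been placed in either.

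**Figure D4:**
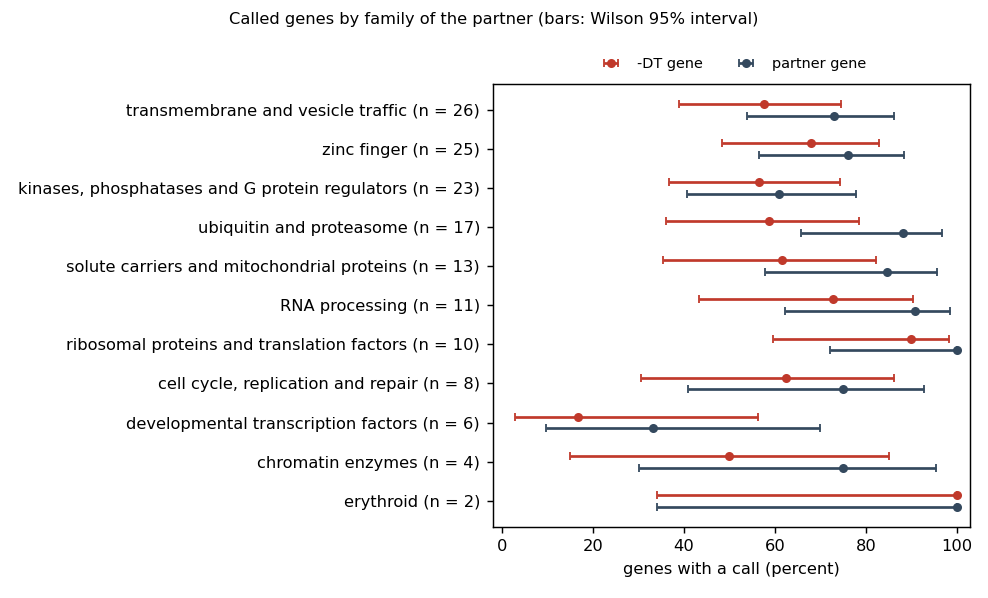
Share of -DT genes (red, upper) and of their partners (blue, lower) with a call, in percent, in 11 groups of partner genes; n is the number of pairs and bars are Wilson 95% intervals. Of the 10 prefix groups, that of ribosomal proteins and translation factors (n = 10) has the highest share of -DT genes, 90.0%, and that of developmental transcription factors (n = 6) the lowest, 16.7%.

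Of 82 genes on a list of erythroid regulators and effectors 2 had a -DT gene, KLF9 and NFE2L1, and all 4 genes were called. KLF9 encodes a zinc finger factor induced by glucocorticoids, and NFE2L1 a CNC family factor related to the erythroid factor NF-E2. KLF9-DT was called at 70414486 on chromosome 9, 296 bp inside its annotated start, and lay 172 bp from the KLF9 call, which was 343 bp downstream of its own annotated start. The annotation has the starts overlap by 467 bp, while the calls diverge. NFE2L1-DT, 1173 bp long, was called at 48048092 and 48047766 on chromosome 17, and the call at 48048092 lay 39 bp upstream of the annotated start and 267 bp from a promoter call of NFE2L1. A further NFE2L1 call lay 458 bp upstream of the annotated NFE2L1 start, between the -DT calls. Both NFE2L1-DT calls also lay within 500 bp of the end of COPZ2, a coatomer gene, so they cannot be assigned to 1 gene.

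Further calls on the strand of the -DT gene were counted along its length and 500 bp ahead of it. At least 2 calls were found in 80 of the 332 genes (24.1%, interval 19.8 to 29.0%), at least 3 in 8 and at least 5 in 2. Among called partners 26.8% had at least 2 (interval 22.8 to 31.4%), in genes with a median length of 36544 bp, against 6851 bp for called -DT genes and 9101 bp for uncalled ones. At the start itself 45 -DT genes had 2 calls and 2 had 3. The last were KCNQ5-DT, at -406, 33 and 467 bp, and PAPOLA-DT, beside a poly(A) polymerase gene, at -451, 32 and 284 bp.

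KLF9-DT and EPM2A-DT, with 5 own-strand calls each, were the longest series. In KLF9-DT they lay 296, 4328, 5468, 6095 and 71351 bp from the annotated start in a gene of 136304 bp, so that the last stood far from the others. EPM2A-DT, 151717 bp long and partner of the laforin gene of glycogen metabolism, had calls at 117, 482 and 799 bp and a second cluster at 79244 and 80024 bp. GSK3B-DT, beside a kinase gene of Wnt and insulin signalling, was called at 145, 636 and 4833 bp, and ANKHD1-DT at -52, 266 and 3344 bp. In AP1AR-DT, 2590 bp long, calls at -2, 550 and 822 bp covered the first part of the gene. The shortest called gene was TRIM8-DT, at 398 bp, and the longest USP38-DT, at 396420 bp.

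The promoter table allowed the base at the call to be read for 186 -DT calls. RNA polymerase II prefers to start on a purine that follows a pyrimidine. Such a step ended at the called base in 31.7% of the -DT calls (interval 25.5 to 38.7%), and in 45.7% (38.7 to 52.9%) it began there, with the purine 1 bp downstream. Together 77.4% of the -DT calls (interval 70.9 to 82.8%) had the step at 1 of these positions, against 77.6% of 281 partner calls and 76.0% of 7865 calls in all promoter windows. At the other positions of the purine within 5 bp, each taken singly, the step was found in 11.3 to 26.9% of -DT calls. Steps cannot lie at 2 neighbouring positions, and the lowest shares were those next to the positions above, 11.8% at -1 bp and 11.3% at 2 bp. On the forward strand 32.6% of all calls in promoter windows had the step ending and 43.5% beginning at the called base, and on the reverse strand 31.0% and 45.0%. The step was thus more frequent 1 base downstream of the called base than at it, on either strand.

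**Figure D5:**
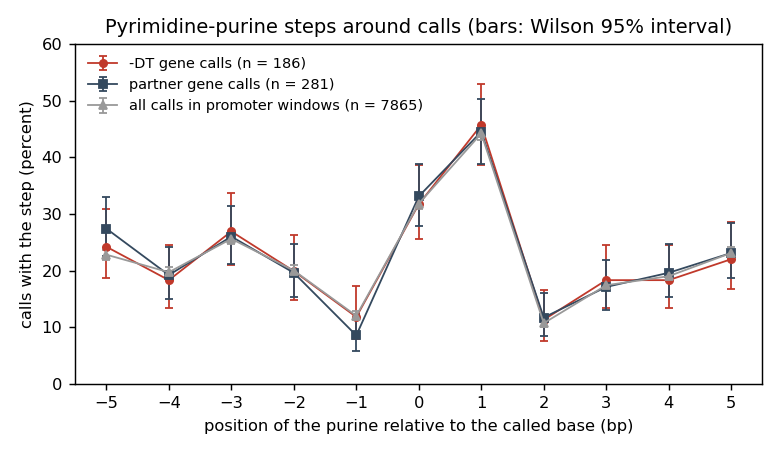
Share of calls, in percent, with a pyrimidine-purine step whose purine lies at the given position in bp relative to the called base, for 186 -DT calls (red circles), 281 partner calls (blue squares) and 7865 calls in all promoter windows (grey triangles). Bars are Wilson 95% intervals; all 3 series peak at 0 and 1 bp, at 31.7% and 45.7% for the -DT calls.

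Promoter windows from 250 bases before to 50 after the annotated start were given for 278 called and 187 uncalled -DT genes. Their median GC content was 68.5% in called and 68.0% in uncalled genes, against 58.7% in 34789 promoter windows of all genes, and they held a median of 31 and 28 CpG dinucleotides, against 14. The ETS core CCGGAAG, searched like all motifs on both strands, was in 71 of the 278 windows of called -DT genes (25.5%, interval 20.8 to 31.0%), against 14 of 187 windows of uncalled ones (7.49%, interval 4.51 to 12.2%) and 10.2% of all windows. The core GCATGCG of the NRF1 motif was in 9.35% of called -DT windows, 2.67% of uncalled ones and 3.87% of all windows. ETS factors such as GABPA, and NRF1, are regulators of housekeeping promoters. With annotated starts 135 bp apart in the median pair, many windows also hold the partner's start. The partner was called for 294 of 335 called -DT genes, against 112 of 256 uncalled ones. A contrast between called and uncalled -DT genes therefore cannot be told apart from one between called and uncalled partners. Of the sequences printed above, those of TMEM161B-DT and ZNF778-DT hold the ETS core, that of OTULIN-DT the NRF1 core and a GC box, that of RB1-DT a GC box and that of EMSY-DT a CCAAT box.

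For the other motifs the intervals of called and uncalled -DT genes overlapped. The GC box GGGCGG was in 77.3% and 67.9%, against 44.9% of all windows, the CCAAT box CCAAT in 32.4% and 28.3%, against 34.6%, and the core TGACGTC of the cyclic AMP response element in 8.63% and 6.42%, against 3.43%. The TATA box TATAAA was in 2.88% and 4.81%, against 11.6%, and the core CCACACC of KLF motifs in 5.40% and 6.42%, against 6.87%. AGATAA, a form of the motif of the GATA factors, was in 2.88% of the called -DT windows, 6.95% of the uncalled and 10.4% of all. None of these motifs contains another. The motifs were chosen with earlier results of these data known, a match is not evidence of binding, and the windows of all genes differ from those of -DT genes in GC content.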

How the data were processed

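PRO-seq was performed in 3 libraries of sg1617-edited HUDEP-2 clones and 2 of wild-type cells. Per the file headers, the deposited lists are TSScall start sites of 1 sorted, de-duplicated alignment. Per the submitters' processing notes, hg38 was the build, and deepTools 3.5.4, SAMtools 1.17, BWA 0.7.16a and Picard were used. The minimum number of reads for TSScall is not given in the sources used here. The deposited score was 0 in every call and was not used. The end coordinate of each 1-base interval was taken as the position.

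Gene ends, and strands and promoter sequences where listed, came from RefSeq tables of GRCh38.p14. All 591 -DT genes had a protein-coding partner, found by removing the ending. The strand from the promoter table and the position of the partner agreed for 466 of 469 genes. The partner was called when a call on its strand lay within 500 bp of its outer start. Divergent calls lay on the other strand 0 to 1000 bp upstream. Shares have Wilson 95% intervals for counting over genes or calls, which are not replicates.

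Named genes were picked by a written rule: partners on the erythroid list, up to 4 called and 4 uncalled genes per family, and extremes of offset, distance, length and number of calls. ABCF1-DT, ARHGAP11A-DT, ARHGAP11B-DT, DCAF8-DT, DMXL1-DT, EIF2AK3-DT, KLF2-DT, LHX1-DT, PDE7A-DT, PIGY-DT, PRMT5-DT, RAB30-DT, SOD1-DT and STUB1-DT fall outside it and were chosen after their values were seen. The members, lists and motifs were chosen with earlier results of these data known. The scripts were tested on a simulated list, where all 200 planted pairs, offsets and distances were recovered. Figures were drawn with matplotlib 3.10.9, and values computed with scipy 1.17.1, pandas 2.3.3 and numpy 2.4.6 under Python 3.11.15.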

Additional observations from a re-analysis of the deposited data

How the results depend on the processing

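Of 41 values recomputed under alternatives 35 stayed within the interval of the reported value or, for the number of calls, within 1.5 times, 6 moved and 0 reversed. With a window of 100 bp the share of called -DT genes was 45.7% and that of called partners 61.9%, in place of 56.7% and 68.7%. The share of uncalled -DT genes with a called partner and another antisense call was 39.2% with 100 bp and 11.3% with 1000 bp, in place of 19.6%; a narrower window leaves more calls outside it. Forward calls alone numbered 185 and reverse calls alone 210, in place of 395. The median offset of all 395 calls, far ends included, was 10 bp and stayed between 8 and 13 bp. The median distance over all 292 pairs, with overlapping calls counted as negative, was 175 bp and stayed between 164 and 177 bp. The medians of 9.5 bp for single genes and 192 bp for divergent pairs given above were not recomputed. Counting any start in the promoter table, chosen after seeing the data, gave 56.7% of -DT genes and 71.2% of partners. No paired analysis was possible because the lists have no values per library. The unknown depth limits every statement on uncalled genes.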

Other observations

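Of the 395 calls, 14 (3.54%, Wilson 95% interval 2.12 to 5.86%) also lay within 500 bp of the end of a gene that is not a -DT gene, on the matching strand, and 7 of these at a protein-coding gene. Both calls at the start of B4GAT1-DT, at 66347799 and 66348115 on chromosome 11, lay within 500 bp of the serine transfer RNA gene TRS-GCT3-1, and B4GAT1 itself had no promoter call. The call of PRMT5-DT at 22929694 on chromosome 14 lay as close to the arginine transfer RNA gene TRR-ACG1-3. The RAB30-DT call at 83072106 on chromosome 11 was shared with LINC02951, and that of PIGY-DT at 88523875 on chromosome 4 with HERC3. RNA polymerase III transcribes transfer RNA genes, and the lists do not say which polymerase made a call. STUB1-DT, which RefSeq lists as a transcribed pseudogene and which the rule leaves out, had 1 call at its ends.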
